A study of Mus musculus with 10 samples.

Results

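The genes described here are 35 genes of the passage from G1 to S phase and of DNA replication in mouse liver, out of 16647 genes in the deposited count table. They were taken from a list by gene symbol, covering licensing of replication origins, the moving replication fork, nucleotide supply, the control of the G1/S step, and chromatin assembly with the S-phase checkpoint. All 35 were in the table and had enough counts to be tested. Their expression was compared between 5 control (vehicle-treated) and 5 MI-883-treated livers, and the level in each liver was set beside it.

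All 10 livers came from male humanized PXR-CAR-CYP3A4/3A7 mice (Taconic model 11585), in which the nuclear receptors PXR and CAR and the CYP3A4 and CYP3A7 enzymes are the human forms. The mice, aged 10 to 15 weeks at the start, were kept on a high-fat diet (HFD) for 8 weeks before dosing. MI-883, which activates human CAR and antagonizes human PXR, was then given by mouth for 4 weeks, in 3 weekly doses of 5 mg/kg. Control mice received its vehicle of DMSO, PEG300 and corn oil by the same route. Each library is from another animal, and both groups carried the human receptors and ate HFD, so neither mouse CAR nor a standard diet was part of the comparison.

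Before a cell copies its DNA, the origin recognition complex, CDC6 and CDT1 load the ring of MCM2 to MCM7 onto origins in G1. CDC45 and the GINS complex then turn this ring into a running helicase, and polymerases, the sliding clamp PCNA, the flap nuclease FEN1 and DNA ligase 1 copy the strands. Most of these genes are transcribed shortly before S phase under E2F factors, after cyclin D and cyclin E kinases have inactivated the retinoblastoma protein. Hepatocytes of an adult liver are mostly quiescent, and in ordinary rodents activation of mouse CAR is known to drive them into the cycle, a response that is reduced with the human receptor.

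Expression is given as counts-per-million values (CPM) of a library size corrected by the TMM method, with the S.D. over 5 livers. Library totals lay between 23513665 and 36221514 counts, with a median of 31734138 in control and 24581671 in MI-883-treated livers. A floor of 3 counts equals 0.0828 to 0.128 CPM of these totals and covers counting error only. The edgeR quasi-likelihood test was run over 13219 genes that had 60 or more counts in all. A gene is named as called where its P, adjusted by the Benjamini-Hochberg method over all tested genes, was under 0.05. An exact two-sided permutation test was added for single genes, and with 5 livers a group its P cannot go below 0.00794.

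The promoters of 5 members are shown first, because the letters that E2F factors and the trimeric factor NF-Y are known to bind differ between them. RefSeq windows on GRCm38.p6, from 250 bases before to 50 bases after a start site, were matched for 28 of the 35 genes. The windows of *Mcm6* (minus strand, chr1:128359656-128359955), *Mcm3* (minus strand, chr1:20820263-20820562), *Mcm2* (minus strand, chr6:88898731-88899030), *Rrm2* (plus strand, chr12:24708004-24708303) and *Mcm10* (minus strand, chr2:5012742-5013041) each start from the outermost start site of their gene. They are written 5′ to 3′ along the gene, with E2F sites and CCAAT boxes in capitals.

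Mcm6: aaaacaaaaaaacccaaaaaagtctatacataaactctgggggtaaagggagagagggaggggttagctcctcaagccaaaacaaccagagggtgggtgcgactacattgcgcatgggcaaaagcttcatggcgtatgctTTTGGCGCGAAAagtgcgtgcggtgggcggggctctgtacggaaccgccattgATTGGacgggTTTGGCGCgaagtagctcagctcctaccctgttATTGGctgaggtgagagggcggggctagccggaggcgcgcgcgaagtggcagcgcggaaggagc

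Mcm3: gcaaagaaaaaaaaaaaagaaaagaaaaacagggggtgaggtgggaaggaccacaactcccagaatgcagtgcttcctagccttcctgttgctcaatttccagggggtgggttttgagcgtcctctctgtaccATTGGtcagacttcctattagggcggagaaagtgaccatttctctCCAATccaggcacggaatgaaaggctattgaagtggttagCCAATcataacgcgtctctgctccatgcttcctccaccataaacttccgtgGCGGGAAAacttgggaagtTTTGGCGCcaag

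Mcm2: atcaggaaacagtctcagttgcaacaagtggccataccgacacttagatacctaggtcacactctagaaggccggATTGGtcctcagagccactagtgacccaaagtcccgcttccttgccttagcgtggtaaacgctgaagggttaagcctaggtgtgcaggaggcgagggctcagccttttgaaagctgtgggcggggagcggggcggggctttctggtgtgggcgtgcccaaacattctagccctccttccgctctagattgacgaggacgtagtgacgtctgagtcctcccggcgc

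Rrm2: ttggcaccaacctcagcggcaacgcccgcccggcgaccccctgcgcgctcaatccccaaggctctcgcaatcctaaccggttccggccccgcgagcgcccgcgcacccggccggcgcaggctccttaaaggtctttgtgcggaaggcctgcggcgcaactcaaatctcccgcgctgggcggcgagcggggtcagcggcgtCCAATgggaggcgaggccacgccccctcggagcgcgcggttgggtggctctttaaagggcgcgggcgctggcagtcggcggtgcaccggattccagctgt

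Mcm10: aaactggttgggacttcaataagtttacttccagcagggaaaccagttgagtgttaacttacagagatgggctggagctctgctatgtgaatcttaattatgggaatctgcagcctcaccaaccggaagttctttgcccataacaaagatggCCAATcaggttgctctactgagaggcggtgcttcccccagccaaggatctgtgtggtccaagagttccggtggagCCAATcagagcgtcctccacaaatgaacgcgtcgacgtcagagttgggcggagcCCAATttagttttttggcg

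An E2F site was counted as TTTCCCGC, TTTGGCGC, TTTGCCGC or TTTCGCGC on either strand, and a CCAAT box as CCAAT on either strand. *Mcm6* held 3 such E2F sites, of which the pair beginning 110 and 106 bases before the start overlap, and *Mcm3* held 2, both after the start. *Mcm2* and *Rrm2* held no E2F site of these letters and 1 CCAAT box each, and *Mcm10* held 3 CCAAT boxes and no whole E2F site. The *Mcm10* window ends in TTTGGCG, which lacks only the last letter of TTTGGCGC, so a site across this edge would not have been counted. A site of these letters was found in at least 1 window of 13 of the 28 matched members (46.4%), beside 4.49% of 10612 tested genes and 2.6% of all 27025 genes with a window. It was present in 6 of 7 matched licensing genes and in 0 of 5 nucleotide supply genes. A CCAAT box was found in 64.3% of matched members, 42.8% of tested genes and 41.1% of all genes. Only 18 of the 28 members had a window at the outermost start of the gene, and 5 had more than 1 window, so a count of matches describes these windows alone.

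Across the 35 genes, expression was mostly higher after MI-883, but a single gene passed the test. *Rrm2* rose, while 34 genes were not called in either direction. The share of called genes over the whole table was 0.764% for higher and 0.265% for lower. In 29 of the 35 genes (82.9%) the log2 fold change was above 0, beside 51.0% of all tested genes, and its median was 0.27 beside 0.0045 over all tested genes. An unadjusted edgeR P under 0.05 was reached by 16 genes on the higher side (8.09% of all genes) and by 1, *Mcm10*, on the lower side (7.49% of all genes). The log2 fold change was above 1 in 5 genes, *Uhrf1*, *Mcm6*, *Mcm5*, *Mcm2* and *Gins2*, beside 1.48% of all tested genes.

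The Wald test of DESeq2 on the same counts called 5 members higher (2.20% of all genes), which were *Mcm2*, *Mcm6*, *Rrm2*, *E2f1* and *Uhrf1*. Every MI-883-treated liver was above every control liver in 3 genes, *Rrm2*, *E2f1* and *Cdc45*, as in 2.05% of all genes. In 12 genes every MI-883-treated liver was above all control livers but at most 1 (5.67% of all genes). No member had all MI-883-treated livers below all control livers, as was the case in 255 of all 13219 tested genes.

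**Figure D1:**
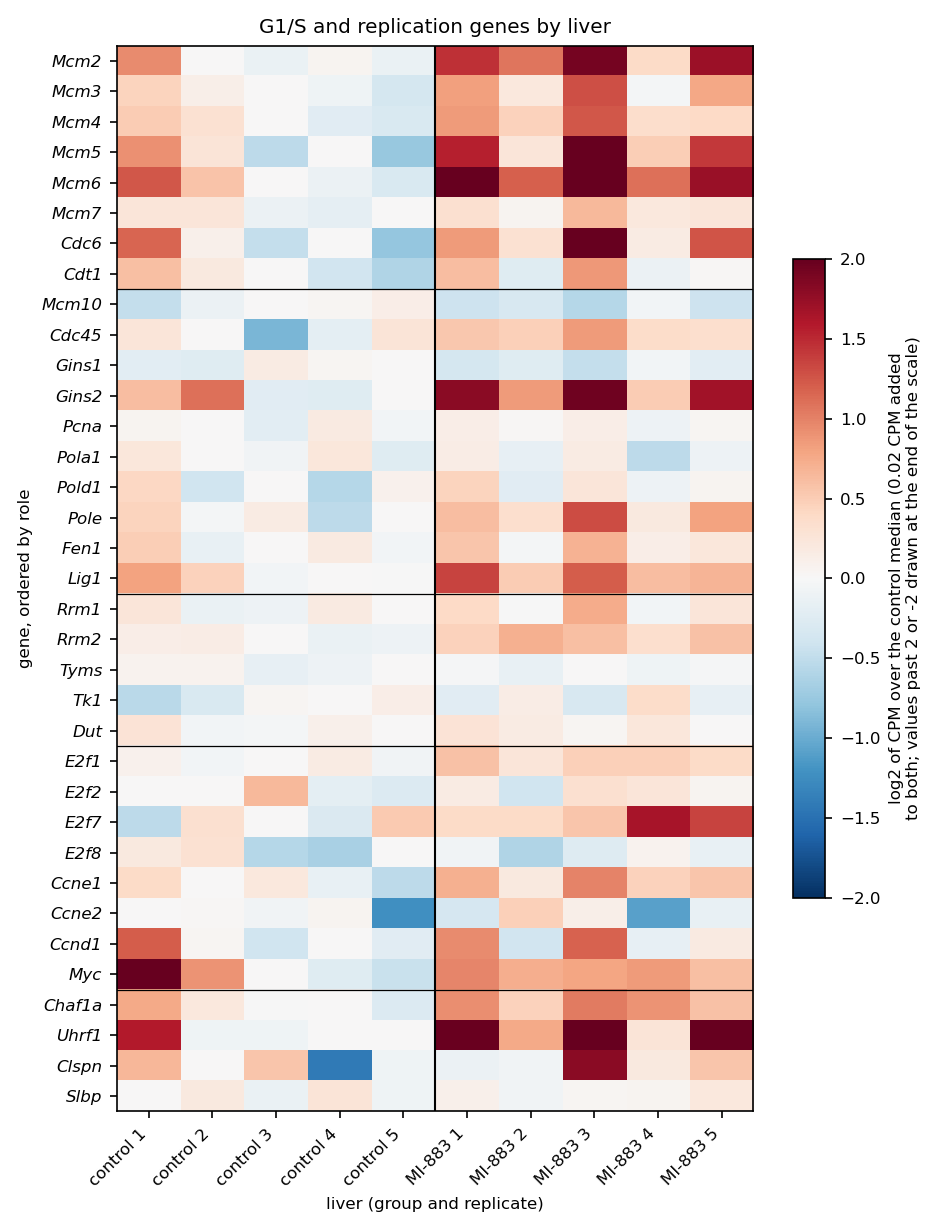
Rows are the 35 genes ordered by role, columns the 10 livers, and color the log2 of CPM over the control median, with 0.02 CPM added to both and a scale that ends at 2 and -2. The upper block of licensing genes is darkest in MI-883 liver 3, the highest of 10 livers in all 8 of its genes, and control liver 1 stands out among controls.

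The licensing genes among the members encode the ring of MCM2 to MCM7 and the loading factors CDC6 and CDT1. They were higher by 0.26 to 1.33 on the log2 scale in all 8 cases, with adjusted P between 0.0581 and 0.640, so none was called. Genes of the origin recognition complex, which also takes part in loading, are among the further replication genes below. The largest fold change of this group was that of *Mcm6*, a subunit of the ring of MCM2 to MCM7. *Mcm6* was at 8.74, 5.50, 3.68, 3.39 and 2.98 CPM in control livers 1 to 5 and at 14.7, 8.41, 18.2, 7.87 and 12.3 CPM in MI-883 livers 1 to 5. Control liver 1 lay above MI-883 livers 2 and 4, while the other control livers lay below all treated ones. *Mcm6* had a log2 fold change of 1.33 (SE 0.302, adjusted P = 0.0581), and the exact permutation P was 0.0238.

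*Mcm2*, another subunit of the ring, was at 5.00, 2.59, 2.37, 2.69 and 2.37 CPM in control livers and at 7.18, 5.49, 9.81, 3.39 and 8.54 CPM in treated livers. Again control liver 1 was the single control above a treated liver, in this case MI-883 liver 4. For *Mcm2* the log2 fold change was 1.19 (SE 0.281, adjusted P = 0.0691, DESeq2 adjusted P = 0.00195). *Mcm5* was at 4.83, 3.06, 1.76, 2.55 and 1.49 CPM in control livers and at 7.52, 3.01, 11.2, 3.61 and 6.84 CPM in treated livers. MI-883 livers 1, 3 and 5 were above all controls, whereas livers 2 and 4 fell within the control range. Its log2 fold change was 1.22 (SE 0.370, adjusted P = 0.152).

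The other subunits of the ring differed less. *Mcm3* was at 5.11 ± 1.07 CPM (S.D., n = 5) in control and 7.96 ± 2.89 CPM in treated livers, a log2 fold change of 0.64 (SE 0.228, adjusted P = 0.204). For *Mcm4* the levels were 4.74 ± 1.15 and 7.26 ± 2.06 CPM (log2 fold change 0.61, SE 0.202, adjusted P = 0.175). *Mcm7*, whose exons share 7.25% of their length with *Ap4m1* on the other strand, was at 13.3 ± 1.81 and 16.0 ± 2.52 CPM (log2 fold change 0.26, SE 0.119, adjusted P = 0.318). Of the 6 genes of the ring, all 6 were highest in MI-883 liver 3 within the treated group and in control liver 1 within the control group.

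*Cdc6* and *Cdt1*, the loading factors, had the same leading livers. *Cdc6* was measured at only 6 to 55 counts per liver, which gave 0.523 ± 0.316 CPM in control and 1.02 ± 0.616 CPM in treated livers (log2 fold change 0.93, SE 0.437, adjusted P = 0.327). *Cdt1* was at 3.74 ± 1.25 and 4.52 ± 1.59 CPM, with a log2 fold change of 0.27 (SE 0.260, adjusted P = 0.640). Both were highest in MI-883 liver 3 and, among controls, in liver 1.

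Genes of helicase activation and the fork were split, with 7 of 10 higher and 3 lower, and none was called. *Cdc45*, which completes the helicase, was at 2.04, 1.72, 0.899, 1.51 and 2.06 CPM in control livers and at 2.50, 2.39, 3.11, 2.22 and 2.16 CPM in treated livers. The groups did not overlap, although control liver 5, at 2.06 CPM, came close to MI-883 liver 5, at 2.16 CPM. These levels rest on 22 to 84 counts per liver. Of the exon length of *Cdc45*, 5.96% is shared with *Ufd1* on the other strand, which had 11973 counts over all livers. *Cdc45* had a log2 fold change of 0.59 (SE 0.214, adjusted P = 0.215, exact permutation P = 0.00794).

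*Gins2* and *Gins1* encode subunits of the same GINS complex and differed in opposite directions. *Gins2* was at 0.754, 1.06, 0.409, 0.405 and 0.482 CPM in control livers and at 1.74, 0.885, 1.92, 0.696 and 1.60 CPM in treated livers, on 10 to 52 counts. MI-883 livers 1, 3 and 5 were above all controls. Its log2 fold change was 1.12 (SE 0.352, adjusted P = 0.162), and 67.3% of the exon length of *Gins2* is shared with *Gse1* on the other strand. *Gins1* was at 4.72, 4.59, 6.13, 5.59 and 5.44 CPM in control livers and at 4.24, 4.60, 3.92, 5.22 and 4.72 CPM in treated livers. The treated liver with the lowest level of *Gins1* was liver 3, and its log2 fold change was -0.22 (SE 0.123, adjusted P = 0.408).

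*Mcm10*, which carries an MCM name but is no part of the ring and acts when the helicase starts, had the lowest log2 fold change of the 35 genes. It was at 90.9, 116, 127, 130 and 139 CPM in control livers and at 95.6, 101, 85.7, 122 and 95.5 CPM in treated livers. Here control liver 1 was the lowest control and MI-883 liver 3 the lowest treated liver, the reverse of their place for *Mcm2* to *Mcm7*. This gave a log2 fold change of -0.27 (SE 0.116, adjusted P = 0.285). Per kilobase of exon, *Mcm10* was also the most abundant member, at 15.7 CPM per kb in control livers, followed by *Pcna* at 14.0, whereas the ring subunits lay between 0.432 and 3.01 CPM per kb. Its exons overlap no other annotated gene.

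Among polymerases, *Pole*, the catalytic subunit of the leading-strand polymerase, was at 1.99 ± 0.470 CPM in control and 3.17 ± 1.03 CPM in treated livers (log2 fold change 0.68, SE 0.233, adjusted P = 0.187). *Pold1*, its counterpart on the lagging strand, was at 3.90 ± 1.06 and 4.34 ± 0.816 CPM (log2 fold change 0.16, SE 0.194, adjusted P = 0.726). *Pola1*, of the polymerase that makes primers, was at 4.72, 4.03, 3.84, 4.72 and 3.42 CPM in control and at 4.48, 3.58, 4.51, 2.78 and 3.76 CPM in treated livers. These groups overlapped almost fully (log2 fold change -0.12, SE 0.154, adjusted P = 0.747).

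Of the genes that join and finish the strands, *Lig1*, DNA ligase 1, was at 3.91 ± 1.10 CPM in control and 6.07 ± 1.65 CPM in treated livers (log2 fold change 0.63, SE 0.213, adjusted P = 0.183). *Fen1* was at 4.77 ± 0.886 and 5.59 ± 1.20 CPM (log2 fold change 0.23, SE 0.166, adjusted P = 0.540), with 78.8% of its exon length shared with *Gm10143* on the other strand. *Pcna*, the sliding clamp and a common proliferation marker, was at 33.5 ± 3.28 CPM in control and 34.8 ± 2.36 CPM in treated livers. The log2 fold change of *Pcna* was 0.05 (SE 0.0789, adjusted P = 0.787), and no treated liver was above the highest control.

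Nucleotide supply held the called gene. *Rrm2*, the small subunit of ribonucleotide reductase whose level follows S phase, rose from 5.74 ± 0.509 CPM to 8.31 ± 0.809 CPM. It was at 6.20, 6.31, 5.68, 5.18 and 5.31 CPM in control livers and at 7.86, 9.29, 8.62, 7.18 and 8.58 CPM in treated livers. The highest treated liver was liver 2, which was the lowest treated liver for *Mcm5* and *Mcm7*. This rise amounted to a log2 fold change of 0.53 (SE 0.104, adjusted P = 0.0275, exact permutation P = 0.00794).

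Without MI-883 liver 3 the log2 fold change of *Rrm2* was 0.52 (adjusted P = 0.0702), and without any single liver it stayed between 0.49 and 0.58. The call was lost when any 1 of control livers 3, 4 or 5 or MI-883 livers 2, 3 or 5 was left out. The other genes of this group differed little. *Rrm1*, the large subunit of the enzyme, was at 11.8 ± 1.35 and 14.0 ± 3.30 CPM (log2 fold change 0.25, SE 0.144, adjusted P = 0.427). *Dut*, which removes dUTP, was at 13.0 ± 1.30 and 13.8 ± 1.11 CPM (log2 fold change 0.08, SE 0.0889, adjusted P = 0.698).

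*Tyms*, thymidylate synthase, was at 8.28 ± 0.617 CPM in control and 8.12 ± 0.367 CPM in treated livers (log2 fold change -0.03, SE 0.0867, adjusted P = 0.905). *Tk1*, the thymidine kinase of cycling cells, was at 28.3 ± 5.24 and 30.3 ± 6.29 CPM (log2 fold change 0.10, SE 0.150, adjusted P = 0.787). For *Tk1* the order of livers was turned, since control liver 1, at 21.1 CPM, was the lowest of 10 and MI-883 liver 4, at 39.5 CPM, the highest. Of the exon length of *Tk1*, 1.6% is shared with *Afmid* on the other strand, which had 35168 counts over all livers.

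**Figure D2:**
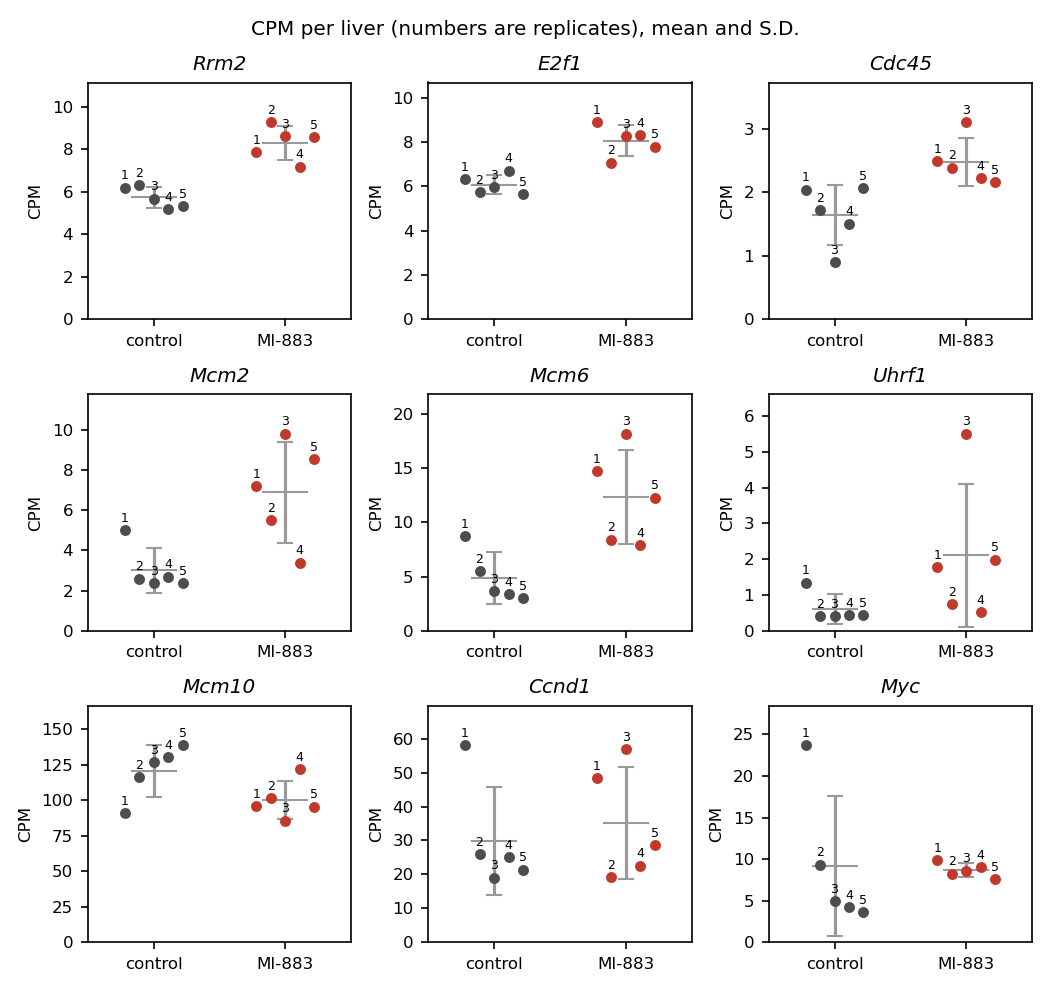
CPM in each liver for 9 genes, gray for control and red for MI-883-treated livers, with the replicate number above each point, the mean as a horizontal line and the S.D. as a bar. *Rrm2*, *E2f1* and *Cdc45* show groups that do not overlap, the middle row is led by MI-883 liver 3, and *Ccnd1* and *Myc* have a high control liver 1.

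Of the regulators of the G1/S step, *E2f1*, an activating E2F factor, came closest to the threshold. It was at 6.34, 5.75, 5.97, 6.72 and 5.66 CPM in control livers and at 8.92, 7.08, 8.29, 8.31 and 7.80 CPM in treated livers. The groups were apart by the gap between 6.72 and 7.08 CPM, and MI-883 liver 1 was the highest. *E2f1* had a log2 fold change of 0.41 (SE 0.0972, adjusted P = 0.0704, DESeq2 adjusted P = 0.0127, exact permutation P = 0.00794).

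*E2f2*, also an activator, was at 1.12 ± 0.321 CPM in control and 1.14 ± 0.209 CPM in treated livers (log2 fold change 0.03, SE 0.233, adjusted P = 0.967). *E2f7* and *E2f8* encode repressors of the family. *E2f7* was at 0.596 ± 0.181 and 1.13 ± 0.495 CPM (log2 fold change 0.94, SE 0.326, adjusted P = 0.190), and its highest livers were MI-883 livers 4 and 5, at 1.83 and 1.49 CPM. Liver 4 was thus at the top for *E2f7* and near the bottom of the treated group for the licensing genes. *E2f8* was at 10.4, 11.2, 6.05, 5.73 and 9.04 CPM in control and at 8.61, 5.97, 7.51, 9.53 and 8.15 CPM in treated livers, with all treated livers inside the control range (log2 fold change -0.09, SE 0.192, adjusted P = 0.847).

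*Ccne1*, a cyclin E, was at 2.18 ± 0.510 CPM in control and 3.29 ± 0.681 CPM in treated livers (log2 fold change 0.59, SE 0.195, adjusted P = 0.175), and 4 of 5 treated livers were above all controls. *Ccne2*, the other cyclin E, was at 0.839 ± 0.251 and 0.880 ± 0.332 CPM (log2 fold change 0.05, SE 0.313, adjusted P = 0.959) on 9 to 34 counts, with 17.4% of its exon length shared with *Ints8*. *Ccnd1* encodes cyclin D1, which carries growth signals into the cycle. It was at 58.0, 26.0, 19.1, 25.2 and 21.4 CPM in control livers and at 48.4, 19.3, 56.9, 22.6 and 28.6 CPM in treated livers, so that the highest of all 10 livers was control liver 1. For *Ccnd1* the log2 fold change was 0.23 (SE 0.340, adjusted P = 0.778), which became 0.62 without control liver 1 and -0.01 without MI-883 liver 3. Of its exon length, 23.4% is shared with *LTO1*.

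*Myc*, the growth-promoting transcription factor, was at 23.7, 9.34, 4.99, 4.20 and 3.64 CPM in control livers and at 9.84, 8.27, 8.62, 9.01 and 7.59 CPM in treated livers. All 5 treated livers were above control livers 3, 4 and 5 and below control liver 1. The log2 fold change was -0.10 (SE 0.424, adjusted P = 0.933), and without control liver 1 it was 0.64 (adjusted P = 0.196). Leaving out this 1 control liver thus turned the direction for *Myc*.

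Chromatin assembly, checkpoint and histone mRNA genes were higher in 4 of 4 cases, and none was called. *Uhrf1*, which keeps DNA methylation on newly made strands, had the highest log2 fold change of all 35 genes. It was at 1.34, 0.406, 0.409, 0.434 and 0.439 CPM in control livers and at 1.78, 0.752, 5.51, 0.522 and 1.99 CPM in treated livers. MI-883 liver 3 was at 12.7 times the control median, and control liver 1 at 3.09 times. Its log2 fold change was 1.77 (SE 0.585, adjusted P = 0.175, DESeq2 adjusted P = 0.0405), and it was 1.04 without MI-883 liver 3 and 2.32 without control liver 1.

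*Chaf1a*, the large subunit of a histone chaperone that follows the fork, was at 3.02 ± 0.884 CPM in control and 4.65 ± 0.771 CPM in treated livers (log2 fold change 0.61, SE 0.192, adjusted P = 0.162). Of its exon length, 52.5% is shared with *Ubxn6* on the other strand. *Clspn*, the checkpoint adaptor claspin, was at the edge of detection with 2 to 19 counts per liver, which gave 0.203 ± 0.0998 and 0.310 ± 0.224 CPM (log2 fold change 0.63, SE 0.513, adjusted P = 0.587). *Slbp*, which binds histone mRNA, was at 12.1 ± 1.48 and 12.3 ± 0.894 CPM (log2 fold change 0.01, SE 0.0957, adjusted P = 0.966). In all, 13 of the 35 genes share exon sequence with another gene on either strand, 5 of them over more than 15% of their length. The libraries were directional, but the strand setting of the counting is not given in the sources used here, so that reads of such pairs may not have been told apart.

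The livers did not contribute evenly. MI-883 liver 3 was the highest of all 10 livers in 17 of the 35 genes and the highest treated liver in 21, and control liver 1 was the highest control in 20. Dividing each gene by its control median, the median over the 35 genes was 1.67 in MI-883 liver 3, 1.45 in liver 1, 1.26 in liver 5, 1.16 in liver 4 and 1.15 in liver 2. Among controls it was 1.31 in liver 1, 1.02 in liver 2, 0.997 in liver 3, 1.0 in liver 4 and 0.948 in liver 5. Control liver 1 thus lay above MI-883 livers 2, 4 and 5 by this measure, while over all tested genes the same ratio was between 0.996 and 1.01 in every liver.

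The spread between livers was widest for the 8 licensing genes. Their median ratio to the control median was 3.12 in MI-883 liver 3, 2.08 in liver 5 and 1.82 in liver 1, against 1.22 in liver 4 and 1.21 in liver 2. Control liver 1 was at 1.71 and control liver 5 at 0.794. The treated livers therefore ranged from near the level of control liver 2, at 1.16, to far above every control. Within the treated group the lowest level was found in liver 2 for 14 of the 35 genes and in liver 4 for 13, and within the control group in liver 5 for 14.

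**Figure D3:**
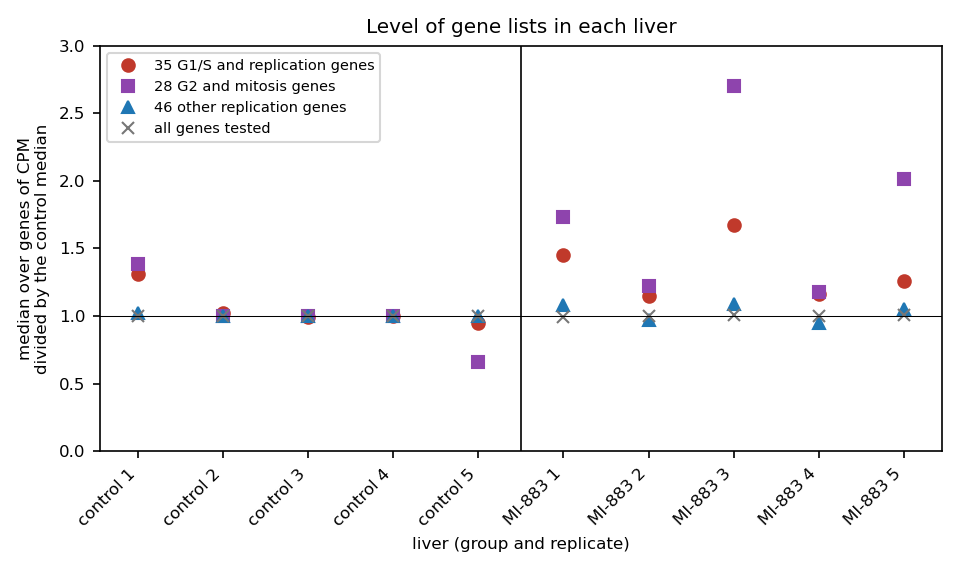
For each liver, the median over genes of CPM divided by the control median is plotted for the 35 genes (circles), 28 G2 and mitosis genes (squares), 46 other replication genes (triangles) and all tested genes (crosses). MI-883 liver 3 is highest for the 35 genes (1.67) and for G2 and mitosis genes (2.70), and control liver 1 is the highest control for both.

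Leaving out control liver 1 or MI-883 liver 3 changed the result for the 35 genes. Without control liver 1 their median log2 fold change was 0.56, with 29 of them moved upward beside 49.5% of all genes, and 4 were called higher, *Mcm2*, *Mcm6*, *Rrm2* and *Chaf1a* (1.13% of all genes). Without MI-883 liver 3 the median was 0.16, 25 of 34 tested members were higher beside 50.2% of all genes, and 0 were called (0.619% of all genes). Without MI-883 liver 4 the called genes were *Mcm2*, *Mcm6* and *Rrm2* (0.662% of all genes). With both control liver 1 and MI-883 liver 3 left out, a setting chosen after seeing the data, the median was 0.40 and *Mcm2* and *Mcm6* were called (0.617% of all genes). In this setting the log2 fold change was 1.30 for *Mcm2* (adjusted P = 0.0377) and 1.47 for *Mcm6* (adjusted P = 0.017), whereas that of *Rrm2* was 0.55 (adjusted P = 0.0766).

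**Figure D4:**
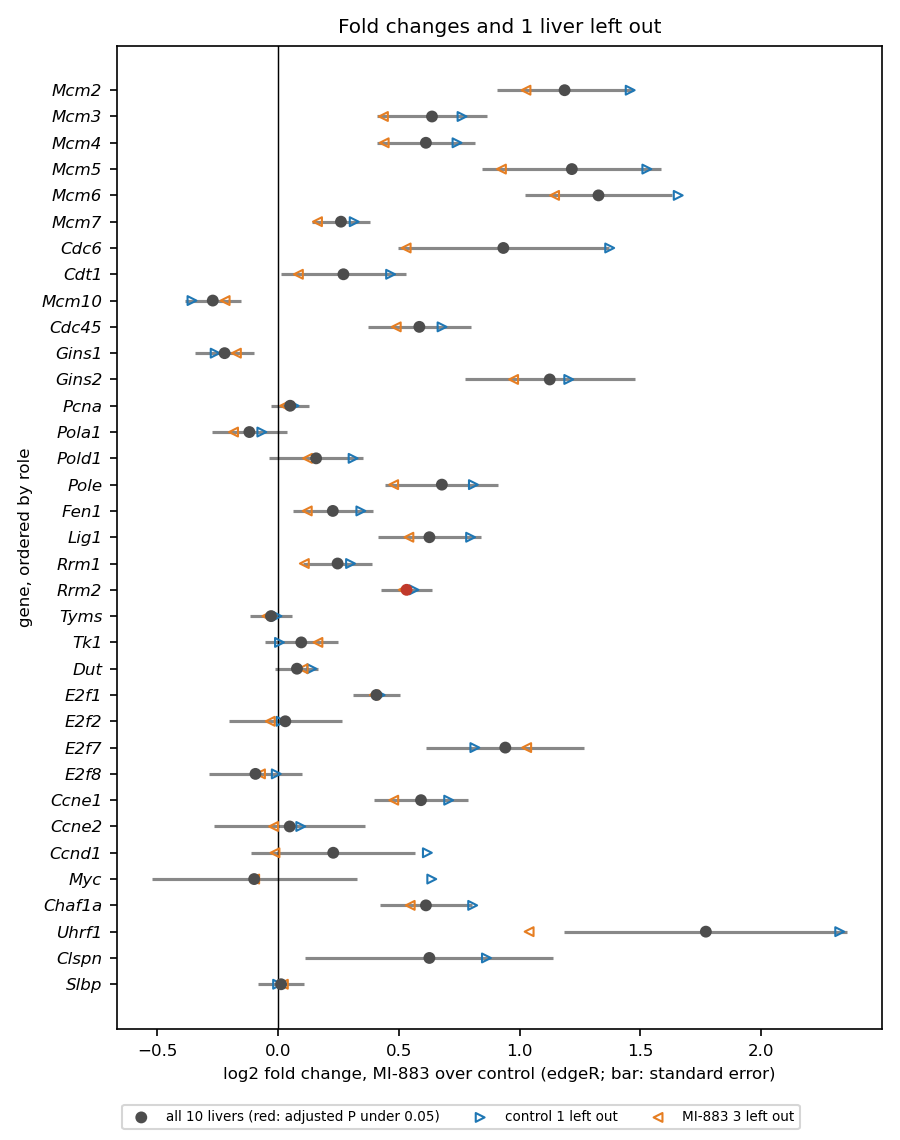
Points are edgeR log2 fold changes of the 35 genes over all 10 livers with standard errors as bars, and open triangles the values without control liver 1 or without MI-883 liver 3. *Rrm2* alone is red (adjusted P under 0.05), and *Uhrf1* moves from 1.77 to 1.04 without MI-883 liver 3 and *Myc* from -0.10 to 0.64 without control liver 1. *Clspn* has no value without MI-883 liver 3, as it was then below the count minimum.

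Other genes of the pathway were set beside these. Of 49 further replication genes, 46 were tested, 29 were higher and 17 lower, and 0 were called by edgeR or by DESeq2. At an unadjusted edgeR P under 0.05, 5 were higher (8.09% of all genes) and 4 lower (7.49% of all genes). Their median log2 fold change was 0.05. Groups did not overlap in 0 genes on the higher side (2.05% of all genes) and in 1 on the lower side (255 of all 13219 genes). The latter was *Orc5* of the origin recognition complex, at -0.25 (SE 0.0795, adjusted P = 0.165, exact permutation P = 0.00794). In the same complex *Orc2* was at 0.08, *Orc3* at 0.05, *Orc4* at 0.05 and *Orc6* at -0.06. *Orc1* had too few counts to be tested. The highest of the list was *Chtf18*, of a clamp loader, at 1.12 (adjusted P = 0.246), and the lowest *Rnaseh2c*, a subunit of ribonuclease H2, at -0.29 (adjusted P = 0.215). Of 28 further G1/S control genes, 15 were higher, 0 were called by edgeR and 1 was called higher by DESeq2 (2.20% of all genes), and the median was 0.01. At an unadjusted edgeR P under 0.05, 7 were higher (8.09% of all genes) and 1 lower (7.49% of all genes). The highest was *Ccna2*, cyclin A2, at 0.725 ± 0.272 CPM in control and 1.60 ± 0.559 CPM in treated livers (log2 fold change 1.12, SE 0.305, adjusted P = 0.110, DESeq2 adjusted P = 0.0226). The lowest was *Mycn* at -0.89 (adjusted P = 0.239). *Cdkn1a*, the p21 inhibitor of the cycle, was at 9.97 ± 5.46 and 11.8 ± 6.06 CPM (log2 fold change 0.24, SE 0.402, adjusted P = 0.808), with its highest levels of 18.2 CPM in MI-883 liver 3 and 17.5 CPM in control liver 1.

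Genes of G2 and mitosis, the next phase, had fold changes above 0 in 28 of 28 cases with a median of 0.81, beside 51.0% of all tested genes above 0. Of these, 0 were called by edgeR (0.764% of all genes higher) and 6 by DESeq2 (2.20% of all genes higher). An unadjusted edgeR P under 0.05 was reached by 21 (8.09% of all genes on the higher side). *Mki67*, which encodes the Ki-67 antigen of cycling cells, was at 1.84 ± 0.446 CPM in control and 3.31 ± 1.45 CPM in treated livers (log2 fold change 0.84, SE 0.274, adjusted P = 0.171). For *Top2a*, topoisomerase II alpha, the log2 fold change was 1.08 (SE 0.343, adjusted P = 0.166), for *Cdk1*, the mitotic kinase, 0.66 (SE 0.294, adjusted P = 0.306), for *Cdc20*, the highest of the list, 1.72 (SE 0.449, adjusted P = 0.0978) and for *Kif20a*, the lowest, 0.01 (SE 0.193, adjusted P = 0.992). MI-883 livers 3, 5 and 1 led again, with a median ratio to the control median of 2.70 in MI-883 liver 3, 2.01 in liver 5, 1.73 in liver 1, 1.22 in liver 2 and 1.18 in liver 4, and of 1.38 in control liver 1 and 0.663 in control liver 5. Whether G2 and mitosis genes differed from the 35 genes was not tested.

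All 8 genes taken as readouts of CAR activation were called higher (0.764% of all genes) with groups that did not overlap (2.05% of all genes). They were *Cyp2b10*, the classical CAR target, *Cyp2c55*, *Cyp2c29*, *Cyp2c37*, *Gstm3*, *Ces2a*, *Abcc4* and *Gadd45b*. These genes were chosen with earlier results of these data known, so their count is no independent test of CAR activation. *Cyp2b10* was at 29.2, 44.3, 24.4, 43.8 and 40.8 CPM in control livers and at 851, 1375, 634, 1248 and 989 CPM in treated livers. MI-883 liver 3, with the most G1/S genes at their highest, was thus the treated liver with the lowest *Cyp2b10*. It was the lowest treated liver in 5 of the 8 genes and the highest in 0, and control liver 1 was the highest control in 2 of the 8. MI-883 liver 3 also had the lowest summed level of hepatocyte markers, at 69243 CPM. Whether the CAR readouts and the G1/S genes were related across livers was not tested.

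Markers of the cells in the tissue also differed between livers. *Alb*, albumin, was between 46615 and 61400 CPM in all livers, as the labelled tissue would hold it. Of 8 hepatocyte markers, 0 were higher and 8 lower in treated livers. The log2 fold changes ran from -0.51 for *Apoa1* to -0.003 for *Hnf4a*. At an unadjusted edgeR P under 0.05, 2 were lower (7.49% of all genes), while 0 were called by edgeR and 1, *Apoa1*, was called lower by DESeq2 (172 of all 13219 genes). The paper also reported lower *Apoa1* after MI-883. The summed level of the 8 markers, mostly *Alb*, was 83300, 83880, 86270, 94042 and 97956 CPM in control livers 1 to 5 and 76985, 85092, 69243, 82516 and 72630 CPM in MI-883 livers 1 to 5. The lowest sum was thus in MI-883 liver 3 and the highest in control liver 5. In bulk tissue, fewer cells of a type and less RNA per cell cannot be told apart.

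Cholangiocyte markers summed to 118, 73.4, 28.2, 34.8 and 25.1 CPM in control livers and to 151, 53.0, 191, 35.1 and 52.7 CPM in treated livers, mostly *Spp1*, with MI-883 livers 3 and 1 and control liver 1 at the top. Of the 6, 5 were higher. Sums of 16 tested leukocyte markers lay between 112 and 290 CPM in control and between 154 and 386 CPM in treated livers (10 higher, 6 lower). For 6 Kupffer cell markers the ranges were 182 to 272 and 141 to 320 CPM (4 higher, 2 lower), and for 7 endothelial markers 140 to 193 and 161 to 216 CPM (6 higher, 1 lower). The 8 stellate cell markers (7 higher, 1 lower) summed to 345, 402, 254, 294 and 244 CPM in control livers 1 to 5. In MI-883 livers 1 to 5 they summed to 481, 341, 436, 290 and 373 CPM, so that MI-883 livers 1 and 3 and control liver 2 were at the top.

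Sums of 8 erythroid precursor markers lay between 109 and 155 CPM in control and between 85.0 and 139 CPM in treated livers, and of the 6 tested 1 was higher. Of the markers other than those of hepatocytes, 0 were called by edgeR or DESeq2. At an unadjusted edgeR P under 0.05, 1 leukocyte, 1 cholangiocyte, 4 stellate and 3 endothelial markers were higher (8.09% of all genes) and 1 erythroid marker was lower (7.49% of all genes). *Ly6g* was at 0 in all livers but control liver 2, and *Ermap*, *Cd8a* and *Cldn7* were each at 0 in at least 1 liver. The part of these cell types in the levels of the 35 genes was not tested.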

How the data were processed

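Liver RNA of 5 control and 5 MI-883-treated mice was prepared with a directional library kit and sequenced in pairs of 150-base reads. According to the submitters' notes and the methods, the authors used fastp 0.23.0, aligned to mm10 with STAR and counted with featureCounts. The authors deposited these raw counts per gene, named by Entrez number, without normalization. The annotation and strand setting are not given in the sources used here. Of 16647 genes, 16644 were matched to RefSeq names and positions (GRCm38.p6). Exon lengths and overlaps were computed from GENCODE.

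Genes with at least 60 counts summed over 10 livers (13219) entered the quasi-likelihood test of edgeR 4.0.16 (R 4.3.3), with TMM factors, treatment as the model's single term and Benjamini-Hochberg adjustment. Library totals of 23513665 to 36221514 counts set the precision. Livers were grouped by their labels. All 35 members are named, and those called, with groups apart or with the 5 highest or 5 lowest fold changes are given in every liver. Of other lists the highest and lowest genes, 5 common readouts of proliferation or arrest and the genes of the origin recognition complex are named. The members and lists were chosen with earlier results of these data known. The steps were tested on simulated data. Alternatives were DESeq2 1.42.0, other size factors, other count minimums, the replicate number as a block and leaving out each liver. Leaving out control liver 1 and MI-883 liver 3 together was added after seeing the data.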

Additional observations from a re-analysis of the deposited data

Results flagged for a closer look

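Of 70 groups of 5 livers (35 genes in each condition), 7 held a liver whose gap to its nearest neighbour passed Dixon's 95% critical value, where chance gives about 1 in 20, or 3.5. Control liver 1 stood apart from the other controls in *Mcm2* at 5.00 CPM (nearest 2.69), in *Ccnd1* at 58.0 CPM (nearest 26.0), in *Myc* at 23.7 CPM (nearest 9.34) and in *Uhrf1* at 1.34 CPM (nearest 0.439). In all 4 genes it was the highest control. Control liver 3 was high for *E2f2* at 1.68 CPM (nearest 1.06), and control liver 5 was low for *Ccne2* at 0.395 CPM (nearest 0.899). In the treated group, MI-883 liver 3 was high for *Clspn* at 0.703 CPM (nearest 0.284), on at most 19 counts.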

How the results depend on the processing

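The number of the 35 genes called higher, 1 with edgeR over all livers, was 5 with DESeq2, 2 with no count minimum, and between 0 and 4 when 1 liver was left out (4 without control liver 1, 3 without MI-883 liver 4, 0 without control livers 3, 4 or 5 or MI-883 livers 2, 3 or 5). It was 2 without both control liver 1 and MI-883 liver 3, which was chosen after seeing the data. Over all genes, 136 were called, 463 with DESeq2, 89 with the replicate number as a block, and 62 to 208 with 1 liver left out. Called G2 and mitosis genes numbered 0 with edgeR over all livers, 6 with DESeq2, 1 with median-ratio size factors, 1 with 60 counts in every liver, 1 with no minimum, 0 to 2 with 1 liver left out and 1 without both livers. Other G1/S control genes went from 0 to 1 with DESeq2, 0 to 1 with 1 liver left out and 1 without both. The cause of these changes was not tested. With 60 counts in every liver, 21 members were tested, so the other 14 have no value there. The deviations of same-numbered livers from their group means correlated at 0.373 for number 1 and between -0.11 and 0.094 for the other numbers. The numbers were not taken as pairs, although such correlations cannot show that no pairing exists. With the replicate block *Mcm6* was called (adjusted P = 0.0434) and *Rrm2* was not (adjusted P = 0.0602).

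Log2 fold changes changed sign in 8 genes. *Tyms* was at 0.0157 with total counts, and *Myc* at 0.257 with the replicate block. Without both livers *E2f2* was at -0.0495, *E2f8* at 0.0132 and *Myc* at 0.64. With 1 liver left out the log2 fold changes ranged from -0.062 to 0.00384 for *Tyms*, -0.0173 to 0.166 for *Tk1*, -0.0369 to 0.21 for *E2f2*, -0.207 to 0.0347 for *E2f8*, -0.134 to 0.211 for *Ccne2*, -0.012 to 0.618 for *Ccnd1*, -0.293 to 0.637 for *Myc* and -0.0301 to 0.0712 for *Slbp*. Total counts in place of TMM moved the median of all genes to 0.05 on the log2 scale. *Clspn*, *Cdc6*, *Ccne2* and *Gins2* were limited by depth, at 2 to 55 counts per liver.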
